A study of Mus musculus with 4 samples.

Results

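The genes described here carry the signal of interleukin-6 (IL6) family cytokines and of leptin into the cell and switch it off again: the receptor genes Il6ra, Il6st, Lifr, Osmr and Lepr, the transcription factor gene Stat3, and the feedback genes Socs1, Socs2, Socs3 and Cish. They were taken by gene symbol, and all 10 were found among the 18781 genes listed. RNA came from mature adipocytes of C57BL/6 mice, a common inbred laboratory strain, at postnatal day 30, with 2 libraries from dermal adipocytes of the dorsal skin (dWAT) and 2 from inguinal adipocytes (sWAT). The mice carried no stated genetic change or treatment, and the labels do not say whether the libraries of one depot came from separate animals, and all p-values therefore reflect differences among libraries alone, which may be technical. Adipocytes were freed by collagenase IV and dispase II and collected by flotation, a preparation that can carry other cells along.

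Cytokines of the IL6 family bind receptor subunits such as the IL6 receptor (Il6ra), the LIF receptor (Lifr) or the oncostatin M receptor (Osmr). These cytokines share the signalling subunit gp130, which Il6st encodes. Leptin, the hormone secreted by adipocytes, binds a related receptor (Lepr). These receptors activate JAK kinases, which phosphorylate STAT3. STAT3 then induces Socs3, whose protein binds gp130 and the leptin receptor and inhibits JAK. SOCS1 is best known for restraining interferon signalling, whereas SOCS2 and CISH are induced by STAT5 downstream of growth hormone and other cytokines and restrain that pathway.

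Sequence upstream of the RefSeq transcription start (build GRCm38.p6) is shown for the 4 genes whose levels differed between depots, as the place to look for the STAT motif TTCNNNGAA. Matches are in capitals, and each stretch is the longest one outside annotated exons in the 250 bases before the start. The motif reads the same on both strands.
Socs3 (chr11:117969452-117969616, minus strand): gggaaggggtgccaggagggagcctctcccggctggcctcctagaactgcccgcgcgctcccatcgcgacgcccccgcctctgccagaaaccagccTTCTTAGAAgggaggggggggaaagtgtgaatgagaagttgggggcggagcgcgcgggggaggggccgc
Stat3 (chr11:100939541-100939790, minus strand): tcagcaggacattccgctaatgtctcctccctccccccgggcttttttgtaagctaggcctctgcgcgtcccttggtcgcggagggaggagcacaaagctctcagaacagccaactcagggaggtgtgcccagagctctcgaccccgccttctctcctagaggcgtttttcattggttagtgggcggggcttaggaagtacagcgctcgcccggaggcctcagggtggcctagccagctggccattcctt
Il6st (chr13:112463820-112464069, plus strand): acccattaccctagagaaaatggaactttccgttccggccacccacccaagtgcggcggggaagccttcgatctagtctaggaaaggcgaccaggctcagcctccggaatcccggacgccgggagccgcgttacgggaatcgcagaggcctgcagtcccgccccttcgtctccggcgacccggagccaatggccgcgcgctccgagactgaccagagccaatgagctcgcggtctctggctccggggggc
Lepr (chr4:101717157-101717403, plus strand): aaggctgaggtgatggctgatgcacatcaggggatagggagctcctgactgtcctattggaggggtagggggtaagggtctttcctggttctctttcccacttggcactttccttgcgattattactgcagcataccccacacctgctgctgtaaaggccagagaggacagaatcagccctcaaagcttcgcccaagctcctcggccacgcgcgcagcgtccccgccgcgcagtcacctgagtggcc
The Socs3 stretch held 1 match, starting 154 bases before the RefSeq start, and the other stretches held none. In the GENCODE M21 annotation the Socs3 stretch lies within the gene (117966079 to 117970047) though outside its exons, so a longer annotated transcript spans it. Over the 250 bases before each start, annotated exons included, 1 of 11 windows from 9 of the genes held the motif, beside 7.04% of 32536 windows of all genes searched in the same way. The windows of Il6ra, Osmr and Cish and the second window of Lepr lie wholly within annotated exons. The AP-1 motif TGANTCA, searched on both strands, was in 0 of the 11 windows and in 6.73% of all windows. These matches describe letters in the windows and do not show binding.

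Between 10127125 and 12730013 reads were assigned to genes per library, and 12797 genes with at least 1 CPM in at least 2 libraries were tested. CPM is the authors' normalized read count, scaled close to library size, and 1 read was worth 0.0844 to 0.0969 CPM. Each log2 fold change compares dermal with inguinal libraries as log2(CPM + 0.5), so a negative value means higher in inguinal, and the test was limma with Benjamini-Hochberg adjustment over all tested genes, two-sided. All 10 genes passed the filter. The 12 adipocyte markers, all in the table, summed to 44296 and 40680 CPM in dermal against 45222 and 41779 CPM in inguinal libraries. Of these 12, Plin1 and Lep passed with higher dermal levels and 0 with higher inguinal levels, and 10 of the 12 estimates were positive. Most of each sum came from Cfd and Fabp4, the 2 markers with negative estimates. Fabp4 measured 7522 and 10585 CPM in dermal against 13594 and 14731 CPM in inguinal libraries. No marker in the table was at 0 in all 4 libraries. Markers of other cell types were also detected. Summed macrophage markers (14 genes, 11 of 13 tested higher in dermal) stood at 1771 and 1667 CPM in dermal against 608 and 572 CPM in inguinal libraries. Summed endothelial markers (14 genes, all 14 higher in inguinal) stood at 566 and 591 CPM in dermal against 2006 and 2978 CPM in inguinal libraries. Keratinocyte and hair follicle markers, 5 of 6 tested higher in dermal, summed to 56.3 to 115 CPM in dermal against 17.3 to 24.9 CPM in inguinal libraries, and T and NK lymphocyte, neutrophil and mesothelial markers to at most 11.8 CPM in any library. In bulk RNA, fewer cells of a type and less RNA per cell cannot be told apart.

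Socs3 was 4.51-fold higher in inguinal than in dermal libraries, Stat3 1.51-fold and Il6st 1.49-fold, while Lepr was 4.02-fold higher in dermal libraries. Thus 3 of the 10 genes were called higher in inguinal, where 8.8% of all tested genes were, and 1 was called higher in dermal, where 7.56% were (16.4% in either direction). Without overlap between depots, 6 of 10 genes were higher in inguinal libraries (30.1% of all genes) and 1 was higher in dermal (31.6% of all, 61.8% in either direction). The median log2 fold change of the 10 genes was -0.45, beside 0.02 for all tested genes. The other 6 genes did not pass.

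**Figure D1:**
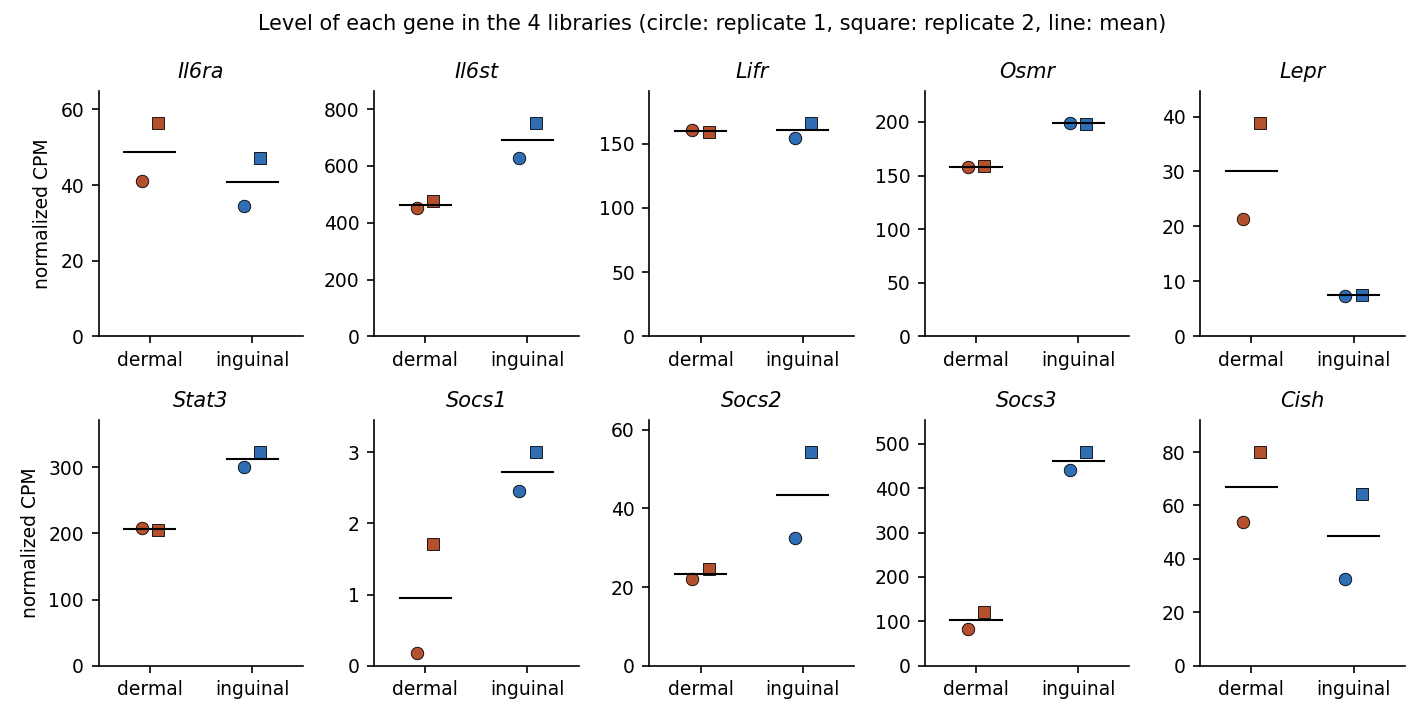
Normalized CPM (y axis, starting at 0) of each of the 10 genes in the 4 libraries, with circles for replicate 1, squares for replicate 2 and a line at the mean of each depot. Socs3 lies at 442 and 482 CPM in inguinal libraries, above its dermal values, and Lepr at 21.4 and 38.9 CPM in dermal libraries, above its inguinal values.

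Among the receptors, Il6st, encoding the shared subunit gp130, measured 451 and 477 CPM in dermal against 629 and 753 CPM in inguinal libraries. Both inguinal libraries lay above both dermal ones (464 ± 17.8 against 691 ± 87.4 CPM, SD, n = 2 each). The log2 fold change was -0.57 (SE 0.15, adjusted p = 0.0483, limma), close to the threshold. This call ended in 8 of 14 alternatives, with adjusted p = 0.0537 in edgeR's quasi-likelihood test on recovered reads, 0.274 without dermal replicate 1, 0.212 without dermal replicate 2 and 0.0973 without inguinal replicate 2, and the estimate stayed negative in all 14.

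Osmr, encoding a receptor subunit for oncostatin M, measured 158 and 159 CPM in dermal against 199 and 198 CPM in inguinal libraries. The replicates lay close together and the depots did not overlap, but the difference of -0.33 (95% interval -0.61 to -0.04) had an adjusted p = 0.111 in limma. Lifr, which pairs with gp130 to bind leukaemia inhibitory factor, measured 161 and 159 CPM in dermal against 154 and 166 CPM in inguinal libraries. Its inguinal values enclosed the dermal ones, and the 95% interval of the log2 fold change ran from -0.29 to 0.29 (adjusted p = 0.995, limma). Il6ra, which gives a cell its own binding site for IL6, measured 41.1 and 56.5 CPM in dermal against 34.5 and 47.1 CPM in inguinal libraries. The depots overlapped, with a log2 fold change of 0.26 (95% interval -0.27 to 0.78, adjusted p = 0.469, limma).

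Lepr, the leptin receptor gene, measured 21.4 and 38.9 CPM in dermal against 7.43 and 7.56 CPM in inguinal libraries, from 235, 410, 88 and 78 reads. Both dermal libraries lay above both inguinal ones, although the dermal libraries differed from each other more than the inguinal ones did (30.1 ± 12.4 against 7.496 ± 0.0925 CPM, SD, n = 2 each). The log2 fold change was 1.88 (SE 0.29, adjusted p = 0.00937, limma), and it was called in all 14 alternatives, at 2.30 with dermal replicate 1 left out and 1.45 with dermal replicate 2 left out. Gene-level values do not separate the long signalling form of the receptor from its short forms. Fibroblast and progenitor markers, of which 1 of 10 (Thy1) was called, summed to 2028 and 5359 CPM in dermal libraries. In inguinal libraries they summed to 1068 and 2034 CPM. Most of the dermal sums came from Col1a1 (528 and 1524 CPM) and Col1a2 (1052 and 2997 CPM). By gene the list was split, as 5 estimates leaned toward dermal and 5 toward inguinal libraries (median 0.11). The part of these markers in the Lepr difference was not tested. Of 5 tested mast cell markers, 3 passed with higher dermal and 1 with higher inguinal levels, and the markers summed to 67.7 and 202 CPM in dermal against 40.4 and 46.0 CPM in inguinal libraries. Macrophage markers (11 of 13 tested) and keratinocyte and hair follicle markers (5 of 6 tested) were called higher in dermal libraries as well. The part of these groups and of the mast cell markers was not tested either.

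Stat3, the transcription factor that gp130 and leptin receptor signals share, measured 208 and 205 CPM in dermal against 301 and 324 CPM in inguinal libraries. The depots did not overlap (206 ± 1.98 against 312 ± 16.1 CPM, SD, n = 2 each), with a log2 fold change of -0.59 (SE 0.12, adjusted p = 0.0236, limma). The call ended without dermal replicate 1 (adjusted p = 0.158), without dermal replicate 2 (0.173) and in 3 other alternatives, with the same direction in all 14. Stat3 shares 72 exonic bases with Stat5a on the opposite strand. Stat5a itself measured 105 and 112 CPM in dermal against 96.5 and 85.7 CPM in inguinal libraries and did not pass (adjusted p = 0.236, limma).

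Socs3, the feedback inhibitor of gp130 and leptin receptor signals, had the largest log2 fold change in size of the 10 genes with all libraries included. Without dermal replicate 1 that of Lepr was larger, at 2.30 against -1.92 for Socs3. It measured 83.3 and 121 CPM in dermal against 442 and 482 CPM in inguinal libraries, from 915, 1279, 5229 and 4972 reads. The lower inguinal library exceeded the higher dermal one by a wide margin (102 ± 26.9 against 462 ± 28.6 CPM, SD, n = 2 each). Its log2 fold change was -2.19 (SE 0.19, adjusted p = 0.00223, limma), and it was called in all 14 alternatives, between -2.46 and -1.92 with each library left out in turn.

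Immediate early genes, whose transcripts rise within minutes of a stimulus and also during tissue dissociation, were higher in inguinal libraries as well. Of 20 such genes, 14 passed with higher inguinal levels and 0 with higher dermal levels, with a median log2 fold change of -1.44 and a summed level of 2581 and 3713 CPM in dermal against 7721 and 8363 CPM in inguinal libraries. The 6 with the smallest adjusted p were Fosb (-2.40), Egr2 (-2.60), Btg2 (-2.29), Atf3 (-1.77), Fos (-1.66) and Klf6 (-1.45), given as log2 fold changes. Endothelial markers, with a median log2 fold change of -2.005, and pericyte and smooth muscle markers, with 7 of 9 passing in that direction, 1 in the other, and a median of -1.37, moved the same way. The part of either group, or of the immediate early response, in the Socs3, Stat3 and Il6st differences was not tested.

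The other feedback genes did not pass in limma. Socs1 was near the detection limit, with 2 and 18 reads in dermal and 29 and 31 reads in inguinal libraries, or 0.182 and 1.71 against 2.45 and 3.01 CPM. The first dermal library lay under the level of 3 reads, 0.273 CPM there, and the estimate of -1.39 (adjusted p = 0.141, limma) moved to -2.24 without dermal replicate 2 (adjusted p = 0.0168) and -0.54 without dermal replicate 1. Socs2 measured 22.1 and 24.7 CPM in dermal against 32.4 and 54.4 CPM in inguinal libraries. The depots did not overlap, but the inguinal libraries differed from each other, and the log2 fold change of -0.83 (SE 0.25) had an adjusted p = 0.0708 in limma, 0.0167 in DESeq2 and 0.00131 without inguinal replicate 1. Cish, with overlapping depots, measured 54.0 and 80.1 CPM in dermal against 32.4 and 64.4 CPM in inguinal libraries. Its log2 fold change of 0.52 (95% interval -0.30 to 1.33, adjusted p = 0.338, limma) was 1.01 without inguinal replicate 2 (adjusted p = 0.0103) and 0.03 without inguinal replicate 1.

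**Figure D2:**
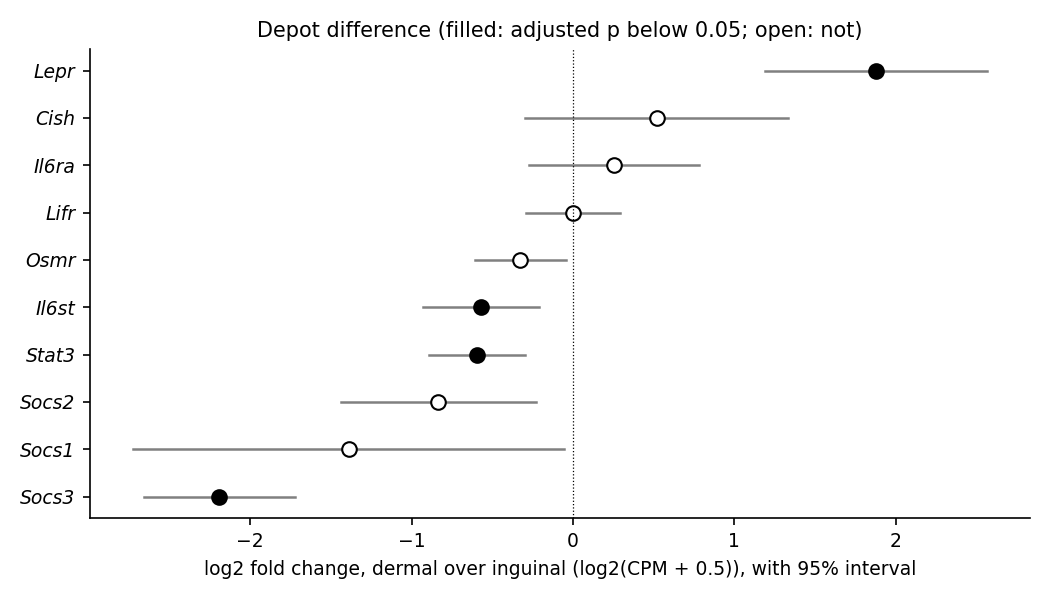
Log2 fold change of each gene, dermal over inguinal (x axis), with its 95% interval from limma, filled where the adjusted p was below 0.05. Lepr lies to the right at 1.88, Il6st, Stat3 and Socs3 are filled to the left of 0, and the intervals of Lifr, Il6ra and Cish include 0.

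Levels were compared between genes per kb of merged exons in GENCODE M21, an annotation that may differ from the authors' gene set. In dermal libraries Il6st had the highest level per kb (40.7 and 42.9 CPM per kb), and Socs3 (28.8 and 42.0 CPM per kb) overlapped with it. Stat3 (21.8 and 21.5), Lifr (14.9 and 14.8), Osmr (13.0 and 13.1) and Cish (8.41 and 12.5) followed in that order in CPM per kb, with no overlap between neighbours. Il6ra (4.75 and 6.54 CPM per kb) overlapped with Lepr (3.03 and 5.52), and Socs2 (2.32 and 2.59) and Socs1 (0.0626 and 0.587) were lowest. In inguinal libraries Socs3 came first, at 153 and 167 CPM per kb, above Il6st at 56.7 and 67.8 and Stat3 at 31.6 and 34.0. Osmr (16.5 and 16.4 CPM per kb) stood above Lifr (14.3 and 15.4). Cish, Il6ra and Socs2, between 3.40 and 10.03 CPM per kb, overlapped only with each other, and Lepr (1.05 and 1.07) lay just above Socs1 (0.842 and 1.03). Merged exons pool the annotated transcripts of a gene, so levels per kb may be understated and the order depends on these lengths. Those of Socs2 and Cish span 9531 and 6419 bases over several transcripts. Those of Stat3, Osmr and Il6ra span 9527, 12113 and 8642 bases.

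**Figure D3:**
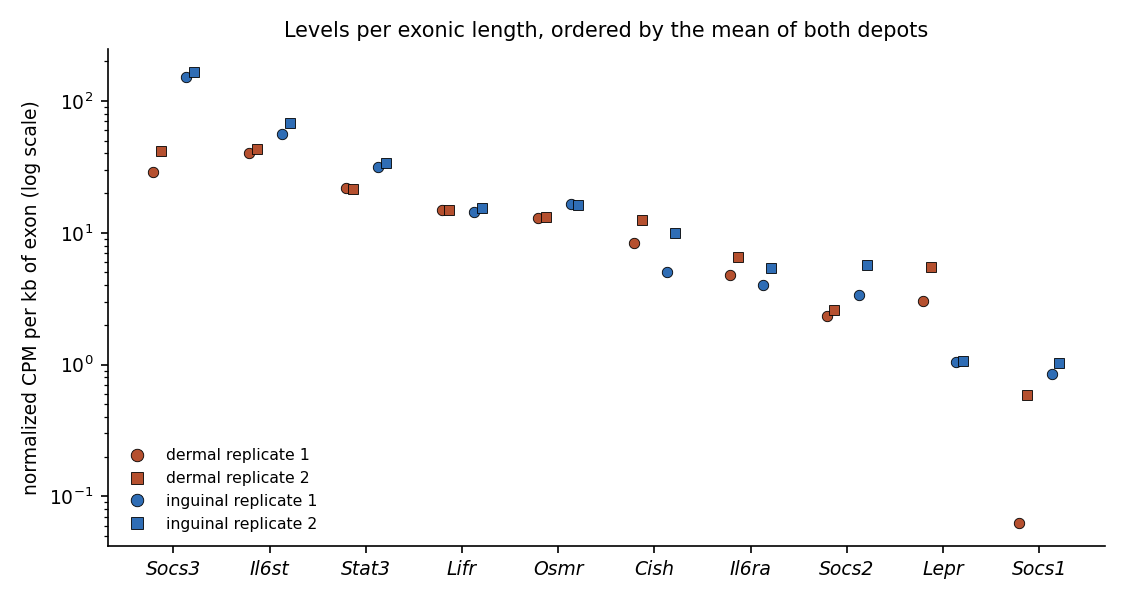
Normalized CPM per kb of merged exon (log scale) for the 10 genes in each library, ordered by the mean of both depots. In inguinal libraries Socs3 stands above Il6st, while in dermal libraries the 2 genes overlap.

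Ligands of these receptors were measured in the same libraries. Of 13 listed, 11 were in the table and 7 were tested, of which 2 passed toward dermal and 1 toward inguinal libraries. Il6 measured 16.9 and 18.0 CPM in dermal against 127 and 122 CPM in inguinal libraries (a log2 difference of -2.80, SE 0.13, adjusted p = 0.000664, limma), so both inguinal values lay far above the dermal ones. Osm, encoding oncostatin M, a cytokine made largely by myeloid cells, went the other way, at 7.92 and 10.2 CPM in dermal against 1.18 and 1.07 CPM in inguinal libraries (a log2 difference of 2.54, adjusted p = 0.00289, limma). Its dermal excess stood beside the higher macrophage markers of those libraries, whose part was not tested. Lep, encoding leptin, was higher in the libraries with more Lepr, at 488 and 520 CPM in dermal against 243 and 209 CPM in inguinal libraries (a log2 difference of 1.16, adjusted p = 0.00437, limma). Lif measured 2.18 and 3.42 against 0.844 and 1.07 CPM, without overlap, and did not pass (adjusted p = 0.0567, limma). Ctf2 and Il31 are not analysed here. Of the 4 remaining receptor genes 2 were tested, and Il11ra1, the IL11 receptor subunit gene, was called higher in dermal libraries (log2 fold change 0.65, adjusted p = 0.0401, limma), a call that ended in 6 of 14 alternatives, including without dermal replicate 1 (adjusted p = 0.211), dermal replicate 2 (0.178) or inguinal replicate 2 (0.0717).

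Of 9 tested JAK kinases and other STATs, 2 kinases passed toward inguinal and 0 genes toward dermal libraries, with a median log2 fold change of 0.25. Jak2, which the leptin and growth hormone receptors use, measured 94.0 and 101 CPM in dermal against 227 and 282 CPM in inguinal libraries (a log2 difference of -1.37, SE 0.15, adjusted p = 0.00346, limma). Jak1, the main kinase of gp130, measured 236 and 205 CPM in dermal against 408 and 394 CPM in inguinal libraries (a log2 difference of -0.86, SE 0.13, adjusted p = 0.00974, limma), a call that ended when dermal replicate 2 was left out (0.0824). Both kinase genes were thus higher where Il6st, Stat3 and Socs3 were higher. Endothelial markers and immediate early genes were higher there as well, and their part in the Jak1, Jak2 and Il6 differences was not tested. Stat5b measured 71.0 and 79.7 CPM in dermal against 54.6 and 61.1 CPM in inguinal libraries and did not pass (adjusted p = 0.114, limma).

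Among 15 other SOCS, PIAS and phosphatase genes, 2 passed in each direction and 11 did not pass, with a median log2 fold change of 0.06. Ptpn2, encoding a phosphatase that removes phosphate from JAK1 and STATs, measured 30.9 and 31.6 CPM in dermal against 70.6 and 72.8 CPM in inguinal libraries (a log2 difference of -1.19, adjusted p = 0.00345, limma). Ptpn1, encoding the related phosphatase PTP1B that acts on JAK2 below the leptin receptor, measured 48.9 and 47.7 CPM in dermal against 40.8 and 55.1 CPM in inguinal libraries, with overlap (adjusted p = 0.935, limma). The phosphatase genes higher in dermal libraries, Ptpn6 (log2 fold change 1.37) and Ptprc (0.89), encode proteins of blood cells. Macrophage markers were higher in the same libraries with a median of 1.57, and their part was not tested. Nor was the part of endothelial markers and immediate early genes in the Ptpn2 difference. Socs6 (-0.69) was higher in inguinal libraries, a call that ended with either dermal replicate left out (adjusted p = 0.162 and 0.108, limma), as did the Ptprc call with dermal replicate 1 left out (0.135).

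Known STAT3 target genes other than the 4 already described (Socs3, Stat3, Il6st and Osmr) numbered 26, of which 11 passed toward inguinal and 2 toward dermal libraries, with a median log2 fold change of -0.65. Without dermal replicate 1 the counts were 7 and 1. Of those higher in inguinal libraries, the 4 with the smallest adjusted p were Saa3, an acute phase gene (-2.03), Fos (-1.66), the transcription factor gene Myc (-1.41) and the kinase gene Pim1 (-1.26), with log2 fold changes in brackets. The 2 higher in dermal libraries were Lrg1, a secreted glycoprotein gene (2.34, adjusted p = 0.00197, limma), and Hp, encoding the acute phase protein haptoglobin (1.46, adjusted p = 0.0198, limma), the second named after its values were seen. Hp measured 7252 and 4943 CPM in dermal against 2594 and 1825 CPM in inguinal libraries, without overlap, and leaving out dermal replicate 1 ended its call (adjusted p = 0.0820). The list holds Fos and Junb, which are also immediate early genes, and many of its genes answer to other factors.

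STAT5-linked receptor and target genes other than Socs2 and Cish split, with 3 of 11 tested genes passing toward dermal and 2 toward inguinal libraries and a median log2 fold change of 0.18. Ghr, the growth hormone receptor gene, measured 2809 and 2460 CPM in dermal against 2281 and 1740 CPM in inguinal libraries and did not pass (log2 fold change 0.40, adjusted p = 0.237, limma). Prlr, the prolactin receptor gene (0.69), Csf3r, the granulocyte colony stimulating factor receptor gene (1.81), and Igfals, encoding a subunit of insulin-like growth factor complexes (1.01), were higher in dermal libraries. Csf3r rested on 53 and 77 reads in dermal and 12 and 18 reads in inguinal libraries. Macrophage markers were higher in dermal libraries too, and their part in the Csf3r difference was not tested. Csf2rb, the shared receptor subunit of IL3 and GM-CSF (-1.28), and Il2rg, the common gamma chain (-1.09), were higher in inguinal libraries. Without dermal replicate 1 the counts were 1 and 1, and with dermal replicate 2 left out the dermal count was 1. Without inguinal replicate 2 the inguinal count was 1.

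**Figure D4:**
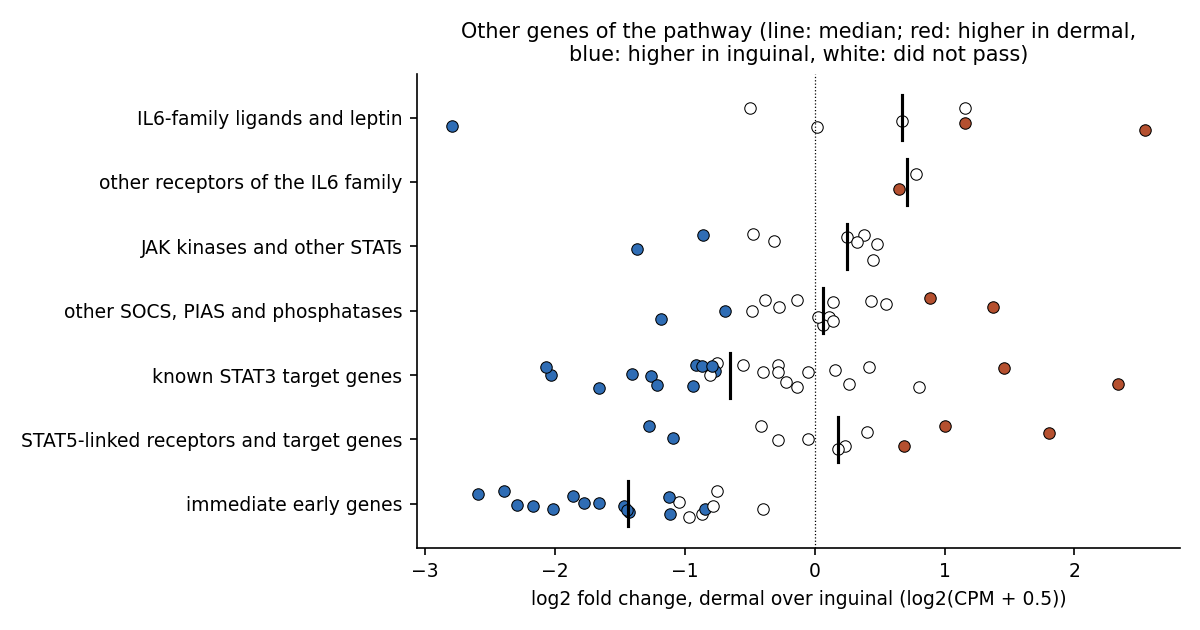
Log2 fold change, dermal over inguinal (x axis), of each tested gene of the pathway lists, without the 10 genes described, with a line at each list's median. Red points were higher in dermal, blue points higher in inguinal and white points did not pass; immediate early genes lie wholly to the left of 0, with a median of -1.44.

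Similarity of pattern was measured as the Euclidean distance between log2(CPM + 0.5) values centred over the 4 libraries, among 8724 other genes with a mean of at least 10 CPM. Nearest to Socs3 were Adtrp (distance 0.120) and Trib1 (0.205), with 69 genes within 0.5. Nearest to Lepr were G0s2 (0.259) and Adamts5 (0.326), with 13 genes within 0.5. For Stat3 (nearest Adss and Rpf1, at 0.0205 and 0.0381) and Il6st (nearest Dek and Nup153, at 0.0430 and 0.0483), 2404 and 2279 genes lay within 0.5. That radius is close in size to the log2 fold changes of Stat3 and Il6st themselves. These counts can therefore include genes with little depot difference.

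In GRCm38 (mm10), Il6ra lies on chromosome 3 (89864059 to 89913196), Lepr on chromosome 4 (101717404 to 101815352), Cish on chromosome 9 (107296026 to 107302784) and Socs2 on chromosome 10 (95385362 to 95417180). Stat3 (100885098 to 100939540) and Socs3 (117966079 to 117970047) lie on chromosome 11, Il6st on chromosome 13 (112464070 to 112510086), Osmr (6813577 to 6874969) and Lifr (7090614 to 7197489) on chromosome 15, and Socs1 on chromosome 16 (10782240 to 10785536). Besides the Stat3 overlap, Il6ra and Cish have annotated opposite-strand neighbours that share 242 exonic bases (Gm42809) and 261 and 479 exonic bases (Gm17040 and Gm17041). Reads of such pairs may not be separable, since whether counting used strand is, among the sources used here, not given.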

How the data were processed

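RNA-seq was made from 2 dermal and 2 inguinal libraries, grouped by their titles. Per the submitters' processing notes, mm10 was the build and TopHat2 2.0.12, featureCounts from Subread 1.4.6, Picard 1.127, edgeR, bcl2fastq and FastQC were used, with no settings given. The deposited signal is a normalized CPM per gene that the authors scaled beyond the library total, with factors of 0.93 to 1.04. Whole reads were recovered for 100% of values within 0.001 of a whole number. The test was limma (version 3.58.1, R 4.3.3), with its intensity trend, applied to deposited CPM as log2(CPM + 0.5) for all 12797 genes with at least 1 CPM in at least 2 libraries (adjusted p below 0.05). The procedure was tested on simulated data. The 14 alternatives included edgeR 4.0.16 and DESeq2 1.42.0 on recovered reads. Replicates of a depot differed beyond sampling noise (chi-square per degree of freedom 22.0 and 36.9). The genes and lists were chosen with earlier results of these data known. Named genes were the 10, up to 6 called genes per list with the smallest adjusted p and 10 preset genes. Adgre1 was matched through its older symbol. Promoter sequences came from RefSeq (GRCm38.p6) and lengths from GENCODE M21. An exact permutation test was not used, as it cannot pass with 2 libraries per group.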

Additional observations from a re-analysis of the deposited data

How the results depend on the processing

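Directions held for 9 of the 10 genes in every alternative that tested them (14, or 13 for Socs1, which a filter at 5 CPM removed), and Socs3 and Lepr were called in all of them. Lifr, near 0, turned to 0.135 with quantile normalization and 0.0812 with scaling to the column sum, and ranged from -0.0563 to 0.0530 with each library left out. Ptpn1 ranged from -0.19 to 0.24 in that way and was -0.0017 in DESeq2. The count of the 10 genes higher in inguinal libraries fell from 3 to 1, Socs3, without the intensity trend, with quantile normalization and with scaling to the column sum, and ranged from 1 to 4 with libraries left out (1 to 2 for dermal). In DESeq2 it was 4. Over all tested genes, 875 were called higher in inguinal without the trend, 1085 with quantile normalization and 832 with scaling to the column sum. In DESeq2 1162 were, against 1126 in the main fit. Scaling to the column sum moved the median of all genes by 0.08. Over all genes the counts ranged from 339 to 1212 higher in dermal and from 568 to 1470 higher in inguinal with libraries left out, against 968 and 1126. A lone library was then assumed to vary like the rest. With a replicate block the counts were 2342 and 2384, and 2 and 6 of the 10 genes, with Osmr (limma adjusted p = 0.0308), Socs1 (0.00679), Socs2 (0.000629) and Cish (0.00627) passing as well. The labels do not pair the libraries, although deviations of libraries with one number correlated at 0.464 across genes. Lifr and Il6ra passed in no alternative. Socs1 rested on the fewest reads of the 10 genes, 2 to 31 per library. The causes of these changes were not tested.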
